A study of Mus musculus with 8 samples.

Results

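The 10 genes followed here are given in the order of their roles: the intermediate filament genes Gfap and Vim, the secreted proteins Serpina3n and Lcn2, the calcium-binding protein S100b, the cytokine receptor Osmr with the transcriptional regulators Stat3 and Id3, and the water channel Aqp4 with the glutamate transporter Slc1a2. They were chosen by name as genes of reactive and resting astrocytes, 10 of the 32285 genes in the count table, and all 10 have a row in it. The table comes from single-nucleus RNA sequencing of mouse brain at 6 months of age, in which 61949 nuclei carry a deposited cell class and 4810 of them are astrocytes. The study asked how defective myelin acts on amyloid pathology, and the question for these genes is how their RNA in astrocytes and in mature oligodendrocytes (MOL) differs with each mutation and with both.

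The tissue was the brain hemisphere, with the cerebellum and olfactory bulb removed, of C57BL6/J mice of 4 genotypes, with 2 libraries each: WT, Cnp-/-, 5xFAD and Cnp-/- 5xFAD. Cnp encodes a myelin protein of oligodendrocytes, and Cnp-/- mice lack it in every cell from conception, so the genotype is not limited to oligodendrocytes. 5xFAD mice carry transgenes under the neuronal Thy1 promoter and deposit amyloid-β, and the Cnp-/- 5xFAD mice carry both alterations. The study's reporting summary describes single-cell replicates in general as pools of mice, while the methods for this 6-month tissue do not say whether a replicate was 1 mouse or a pool. The p-values below measure the spread between these libraries, which may be in part technical.

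Astrocytes are the glial cells that take up glutamate and potassium and line blood vessels and synapses. After injury, inflammation or degeneration they become reactive: the filament protein GFAP and vimentin accumulate, acute-phase proteins are secreted, and cytokines of the interleukin-6 family, acting through receptors such as OSMR, the shared chain gp130 and the transcription factor STAT3, are well-known drivers of this state. Id3 is a target of bone morphogenetic protein signalling, and Aqp4 and Slc1a2 are used by resting astrocytes.

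Astrocytes contributed 391 to 787 nuclei and 1069318 to 2548569 unique molecular identifiers (UMIs) a library, MOL 444 to 1018 nuclei and 819922 to 1801866 UMIs. The median depth was 2636 UMIs in an astrocyte nucleus, 1515 in MOL and 9105 in neurons. The 6 astrocyte markers used to check the label, none of them among the 10 genes, all had UMIs in the astrocyte profile of every library and summed to 13498 to 15552 CPM (UMIs scaled to a common profile total), against 200.02 to 426 CPM in MOL. They also summed to 3702 to 8369 CPM in newly formed oligodendrocytes (NFOL) and 3965 to 5150 CPM in oligodendrocyte precursors (OPC). Cnp itself was at 27.9 to 68.4 CPM in astrocytes of libraries with the gene and at 7.55 to 10.98 CPM in those labelled Cnp-/-. Of 61494 distinct cell barcodes, 454 were found in more than 1 library. UMIs were summed over the nuclei of a class in each library, and a level below is CPM of that sum. Fewer nuclei that express a gene and less of its RNA in each nucleus cannot be told apart in such a sum.

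The filament gene Gfap, the classical marker of reactive astrocytes, had its highest single level in a Cnp-/- library, but the libraries with and without Cnp overlapped. In the order of replicates 1 and 2, its level in astrocytes was 162 and 329 CPM in WT, 327 and 563 CPM in Cnp-/-, 220 and 252 CPM in 5xFAD, and 356 and 426 CPM in Cnp-/- 5xFAD. The 4 libraries without Cnp overlapped the 4 with Cnp by the second WT library alone, which lay just above the lowest Cnp-/- library. In that WT library 1 nucleus held 119 of 496 Gfap UMIs (24.0%), whereas in the other 7 libraries the nucleus with most held 3.29% to 9.93%. Averaged over both amyloid backgrounds, the fitted difference between Cnp-/- and Cnp+/+ libraries was 0.79 on the log2 scale (SE 0.258, unadjusted p = 0.0178, adjusted p = 0.846, edgeR's quasi-likelihood test), so Gfap was higher but did not pass the threshold of 0.05 over all genes. The difference was 0.81 (SE 0.365) between the libraries without 5xFAD and 0.77 (SE 0.364) between those with it. The 5xFAD effect on Gfap was -0.14 (SE 0.257, adjusted p = 0.990, edgeR's quasi-likelihood test). Its sign changed with 1 library left out, from -0.36 to 0.17.

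The sequence at the start of Gfap is shown because it is the only one of the 9 members with a RefSeq promoter window (250 bases before to 50 after the start, build GRCm38.p6) in which the letters TTCNNNGAA, the core of a STAT site, were found. The letters are their own reverse complement, so both strands were read, and 8.30% of all 32851 windows hold them. The promoter of Vim is shown for its TATAAA on the sense strand, which 8.32% of windows hold. The capitals mark these letters, and the last 7 bases of the Gfap sequence lie after the start.
Gfap, chr11:102897194-102897450, minus strand: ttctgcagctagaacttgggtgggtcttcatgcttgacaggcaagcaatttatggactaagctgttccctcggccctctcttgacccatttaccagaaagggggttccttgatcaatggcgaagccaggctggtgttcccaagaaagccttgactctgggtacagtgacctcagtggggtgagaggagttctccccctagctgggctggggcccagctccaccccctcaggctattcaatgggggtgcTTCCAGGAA
Vim, chr2:13574061-13574310, plus strand: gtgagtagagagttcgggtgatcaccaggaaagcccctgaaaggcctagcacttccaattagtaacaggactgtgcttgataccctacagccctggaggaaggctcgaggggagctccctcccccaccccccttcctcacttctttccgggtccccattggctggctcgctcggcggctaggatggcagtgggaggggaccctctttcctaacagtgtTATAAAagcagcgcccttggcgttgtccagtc

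Vim, which encodes the filament protein vimentin that assembles with GFAP, was low in both 5xFAD libraries (26.2 and 32.3 CPM). It was at 27.9 and 87.0 CPM in WT, 57.0 and 125 CPM in Cnp-/-, and 48.8 and 110 CPM in Cnp-/- 5xFAD. Replicate 2 was the higher of the pair in every genotype, and the libraries with and without Cnp overlapped. The fitted Cnp effect was 1.07 (SE 0.451, unadjusted p = 0.0493, adjusted p = 0.918, edgeR's quasi-likelihood test).

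Serpina3n, a secreted inhibitor of serine proteases that marks reactive astrocytes, was low in every library with Cnp. It was at 0.392 and 3.32 CPM in WT (1 and 5 UMIs), 14.0 and 35.0 CPM in Cnp-/- (15 and 51 UMIs), 4.02 and 5.58 CPM in 5xFAD (10 and 10 UMIs), and 17.1 and 27.4 CPM in Cnp-/- 5xFAD (28 and 43 UMIs). All 4 libraries without Cnp lay above all 4 with it, as did 1.58% of the 11809 genes tested in astrocytes. The fitted Cnp effect was 3.03 (SE 0.587, unadjusted p = 0.00129, adjusted p = 0.720, edgeR's quasi-likelihood test). DESeq2 gave the same gene an adjusted p = 0.0147. Serpina3n passed the filter on low counts (6.24 CPM in at least 2 libraries) only through the libraries without Cnp, of which 4 of 4 reached it against 0 of 4 with Cnp, so a gene kept this way had to differ. Serpina3n lies in a cluster of closely related Serpina3 genes, so reads of its paralogs may have been assigned to it or lost from it. Its promoter is shown beside that of Osmr as the pair of members whose libraries separated by Cnp. The Serpina3n promoter holds neither of the letters marked above nor TGANTCA, which was found in 7.81% of windows. TGANTCA allows any middle base and is wider than the core of an AP-1 site, which has C or G there. In the Osmr window TGANTCA was found only after the start, as TGATTCA at bases 4 to 10, which are not shown.
Serpina3n, chr12:104406458-104406707, plus strand: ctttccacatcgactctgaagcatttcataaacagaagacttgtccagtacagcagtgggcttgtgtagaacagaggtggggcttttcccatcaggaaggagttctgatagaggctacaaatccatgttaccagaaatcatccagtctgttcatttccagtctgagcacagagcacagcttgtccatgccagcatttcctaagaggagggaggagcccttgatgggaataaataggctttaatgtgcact
Osmr, chr15:6874314-6874563, minus strand: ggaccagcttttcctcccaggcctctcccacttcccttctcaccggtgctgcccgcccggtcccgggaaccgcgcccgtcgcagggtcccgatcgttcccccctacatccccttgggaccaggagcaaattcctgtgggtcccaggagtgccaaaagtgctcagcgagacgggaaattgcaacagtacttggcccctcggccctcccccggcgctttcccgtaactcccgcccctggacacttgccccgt

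Lcn2, a secreted siderophore-binding protein of acute inflammation, was almost not seen. Its astrocyte profiles held 4 UMIs in the second Cnp-/- library, 1 in the second WT library and 0 in the other 6. A count of 0 allows a level of up to 1.18 to 2.81 CPM in these 6 libraries, from 3 UMIs of each total, by counting error only. Lcn2 was the 1 member of 10 that failed the filter on low counts in astrocytes and was not tested.

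Osmr, the receptor chain for oncostatin M, had levels that did not overlap between any of the 4 genotypes, as in 0.872% of the genes tested in astrocytes. It was at 10.99 and 3.98 CPM in WT (28 and 6 UMIs), 48.6 and 58.3 CPM in Cnp-/- (52 and 85 UMIs), 24.1 and 23.4 CPM in 5xFAD (60 and 42 UMIs), and 41.5 and 37.6 CPM in Cnp-/- 5xFAD (68 and 59 UMIs). The order ran from WT through 5xFAD and Cnp-/- 5xFAD to Cnp-/-. The fitted Cnp effect was 1.74 (SE 0.265, unadjusted p = 0.000311, adjusted p = 0.720, edgeR's quasi-likelihood test), and DESeq2 gave an adjusted p = 0.00257. The Cnp effect was 2.71 (SE 0.394) without 5xFAD and 0.77 (SE 0.356) with it. The test of that difference gave -1.94 (SE 0.527, unadjusted p = 0.00776, adjusted p = 0.919, edgeR's quasi-likelihood test), so it did not pass. The 5xFAD effect was 1.53 (SE 0.392) between the libraries with Cnp and -0.41 (SE 0.352) between those without, with an average of 0.56 (SE 0.262, adjusted p = 0.974, edgeR's quasi-likelihood test).

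Stat3, the transcription factor that signals from this receptor, was at 119 and 89.6 CPM in WT, 196 and 187 CPM in Cnp-/-, 144 and 130 CPM in 5xFAD, and 174 and 131 CPM in Cnp-/- 5xFAD. The libraries with and without Cnp overlapped, with the second Cnp-/- 5xFAD library among the 5xFAD libraries. The Cnp effect was 0.51 (SE 0.134, unadjusted p = 0.00693, adjusted p = 0.763, edgeR's quasi-likelihood test). It was 0.82 (SE 0.192) without 5xFAD and 0.19 (SE 0.189) with it, and the test of the difference gave -0.63 (SE 0.269, unadjusted p = 0.0504, adjusted p = 1.00, edgeR's quasi-likelihood test). Stat3 and Gfap both lie near the targeted gene, 0.293 and 2.30 Mb from Cnp on chromosome 11 (GENCODE M21, GRCm38), so DNA linked to the mutant allele and the loss of Cnp cannot be told apart for them. Of 128 tested genes within 5 Mb of Cnp, 12 (9.38%) had an unadjusted p under 0.05 for the Cnp effect in astrocytes, against 5.38% of the other genes. Gfap and Stat3 are themselves among these 12. In MOL the order was reversed, with 8.696% of the genes near Cnp and 12.03% of the other genes. The median Cnp effect in astrocytes was -0.09 near Cnp and -0.01 over the other genes, whereas Gfap and Stat3 were higher. The part of linked DNA in these values was not tested. Serpina3n on chromosome 12 and Osmr on chromosome 15 are not linked to Cnp.

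The remaining members differed less. Id3 was at 169 and 193 CPM in WT, 165 and 346 CPM in Cnp-/-, 138 and 236 CPM in 5xFAD, and 204 and 254 CPM in Cnp-/- 5xFAD, with a Cnp effect of 0.40 (SE 0.257), which ran from 0.086 without the second Cnp-/- library to 0.61 without the first. S100b ranged from 55.7 to 133 CPM, both extremes in WT libraries, with a Cnp effect of 0.05 (SE 0.340). Replicate 2 was again the higher of each pair for both genes.

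Of the genes used by resting astrocytes, Aqp4 ranged from 203 to 535 CPM with both extremes in Cnp-/- libraries, and its Cnp effect was 0.21 (SE 0.296). Slc1a2, by which astrocytes clear glutamate, was at 6572 and 6466 CPM in WT, 7887 and 8730 CPM in Cnp-/-, 7047 and 7093 CPM in 5xFAD, and 7089 and 8656 CPM in Cnp-/- 5xFAD. Its Cnp effect was small and tight, at 0.25 (SE 0.0774, unadjusted p = 0.0149, adjusted p = 0.825, edgeR's quasi-likelihood test). The first Cnp-/- 5xFAD library lay just below the highest library with Cnp.

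**Figure D1:**
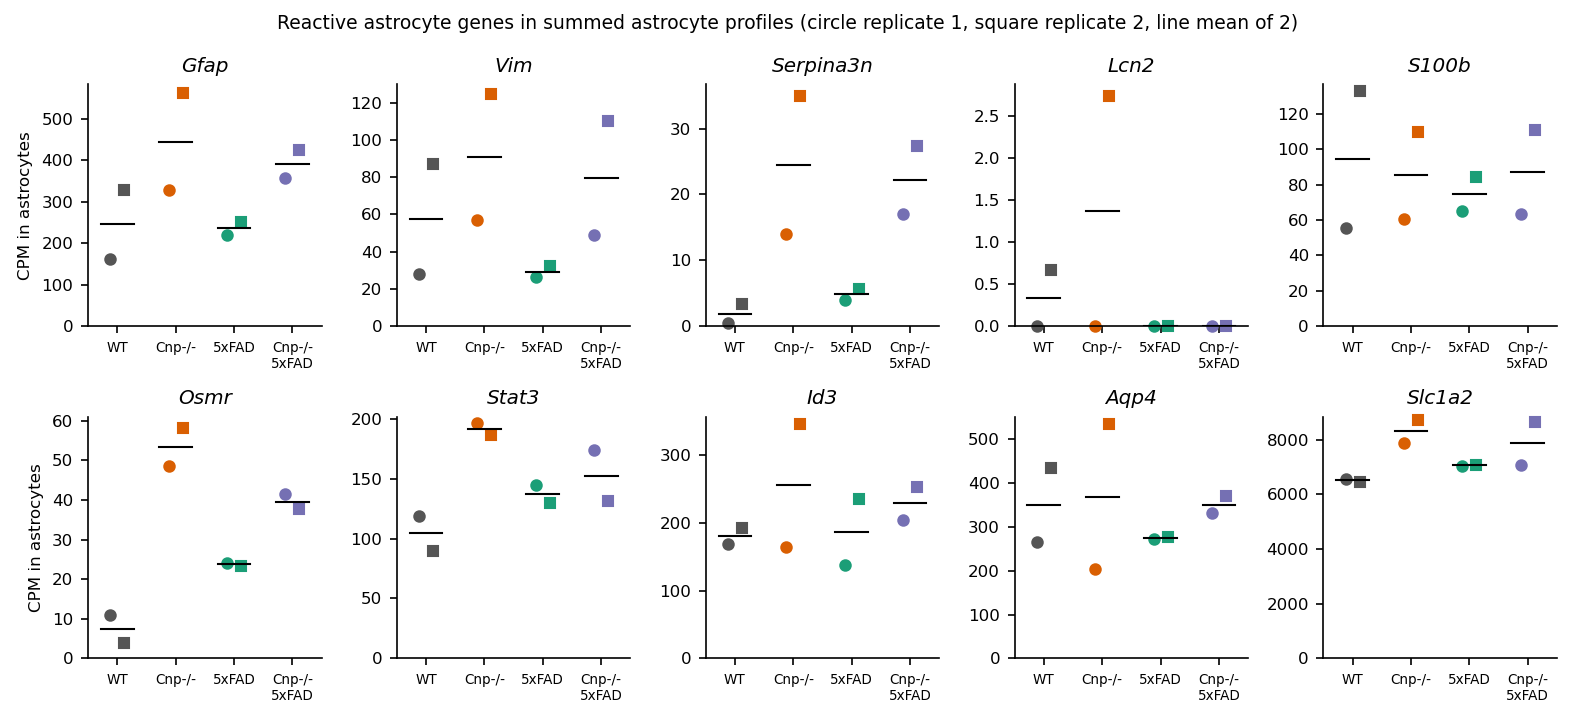
CPM of each of the 10 genes (vertical axes, each from 0) in summed astrocyte profiles of the 4 genotypes (horizontal axis), with circles for replicate 1, squares for replicate 2 and a line for the mean of 2 libraries. Serpina3n and Osmr lie higher in the 4 libraries without Cnp than in the 4 with it, as do 1.58% of the 11809 genes tested. Serpina3n passed the filter on low counts only through the libraries without Cnp. Gfap and Vim overlap, and the squares lie above the circles in every genotype for Gfap, Vim, Serpina3n, S100b, Id3 and Aqp4.

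In all, 9 of 10 members passed the filter and 0 passed the threshold for the Cnp effect in astrocytes, where 0% of 11809 genes did by edgeR's quasi-likelihood test. Cnp itself was among the genes not called. Its astrocyte levels did not overlap, at 7.55 to 10.98 CPM in libraries labelled Cnp-/- and 27.9 to 68.4 CPM in the others. That no member was called therefore does not show that the members were unchanged. DESeq2 called 7 genes (0.0593%), of which Osmr and Serpina3n are members. At an unadjusted p under 0.05 stood 6 of the 9 members (Gfap, Vim, Serpina3n, Osmr, Stat3 and Slc1a2), against 5.43% of all genes tested. Serpina3n is in this count although it passed the filter only through the libraries without Cnp. The members were also chosen with earlier results of these data known, so the counts and the median over members are a description. All 9 fitted Cnp effects were above 0, as were 47.9% of all genes, and their median was 0.51 on the log2 scale against -0.01 over all genes. Those of S100b and Aqp4 did not keep this sign, at -0.21 to 0.42 and -0.21 to 0.47 with 1 library left out, and S100b was at -0.17 between the libraries without 5xFAD. For 5xFAD, 4 of 9 were above 0, as were 50.9% of all genes, with a median of -0.08, and 0 of 9 reached an unadjusted p under 0.05, against 4.86% of all genes, of which edgeR called 0 of 11809 and DESeq2 2 (0.0169%). For the difference of the Cnp effect by amyloid background, edgeR called 0 genes, DESeq2 called 9 (0.0762%), and Osmr was the 1 member among the 4.17% of genes with an unadjusted p under 0.05.

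**Figure D2:**
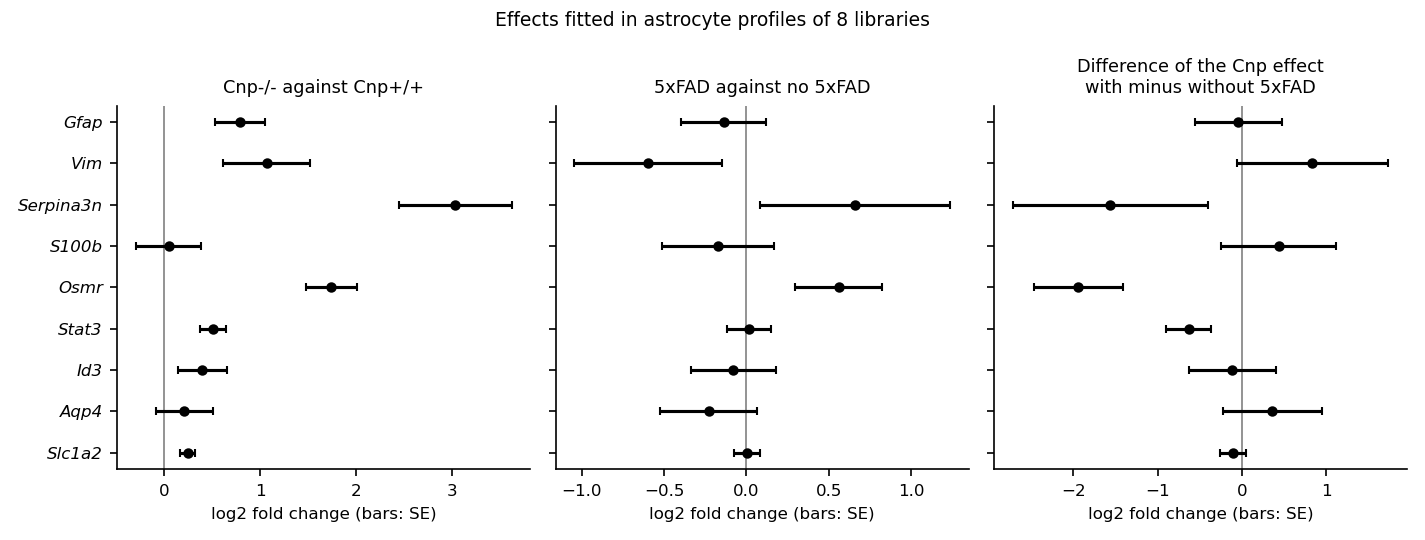
Fitted log2 fold changes with their SE (horizontal axes, a separate scale for each panel) of the 9 members tested in astrocytes (vertical axis), for the Cnp effect, the 5xFAD effect and the difference of the Cnp effect with minus without 5xFAD. The 9 Cnp effects lie between 0.05 and 3.03, of which those of S100b and Aqp4 change sign with 1 library left out, whereas 5xFAD effects lie on both sides of 0.

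The share of astrocyte nuclei with a Gfap UMI separated the libraries by Cnp, which its level did not. Because depth differed between nuclei, the share is the one expected after thinning each nucleus to 1000 UMIs, leaving out 58 of 4810 astrocytes with fewer. It was 8.72% and 9.19% in WT, 16.6% and 34.1% in Cnp-/-, 13.6% and 15.5% in 5xFAD, and 21.1% and 19.0% in Cnp-/- 5xFAD. All 4 libraries without Cnp lay above all 4 with it, as did 1.51% of the 9428 genes seen in at least 1% of thinned astrocytes. Without thinning the shares were 17.3% and 16.1% in WT, 29.4% and 48.2% in Cnp-/-, 26.1% and 29.3% in 5xFAD, and 39.3% and 29.2% in Cnp-/- 5xFAD, where the groups overlapped by the second Cnp-/- 5xFAD library. In neurons, which should lack GFAP, the thinned share was 0.0271% to 0.474%.

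Osmr showed the same order in nuclei as in summed profiles. Its thinned share of astrocytes was 0.912% and 0.264% in WT, 3.42% and 5.25% in Cnp-/-, 2.34% and 1.94% in 5xFAD, and 3.21% and 3.25% in Cnp-/- 5xFAD, against at most 0.0914% of neurons. Serpina3n was seen in few nuclei of any library, with thinned shares of 0.0417% and 0.313% in WT, 0.835% and 2.84% in Cnp-/-, 0.407% and 0.602% in 5xFAD, and 1.59% and 1.62% in Cnp-/- 5xFAD. The thinned shares of both genes separated by Cnp, as did 1.51% of the 9428 genes seen in at least 1% of thinned astrocytes. Serpina3n reached 1% only in libraries without Cnp, so its separation is a description. Stat3 was seen in 16.3% to 17.2% of Cnp-/-, 8.17% to 10.0% of WT, 11.4% to 12.9% of 5xFAD and 11.4% to 15.8% of Cnp-/- 5xFAD astrocytes, where the groups with and without Cnp overlapped.

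**Figure D3:**
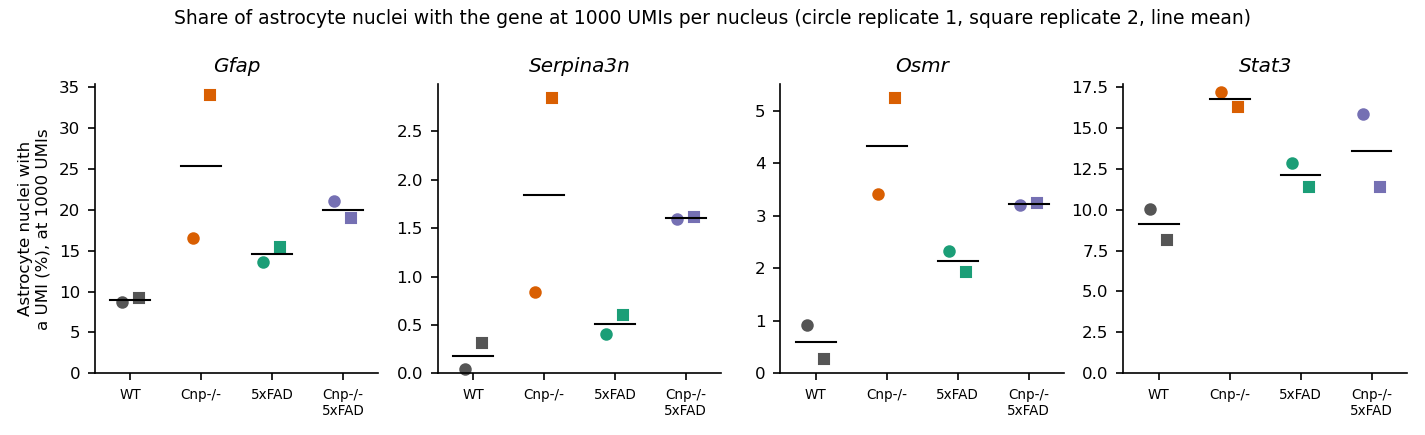
Expected percent of astrocyte nuclei with at least 1 UMI of Gfap, Serpina3n, Osmr or Stat3 (vertical axes from 0) after thinning each nucleus to 1000 UMIs, by genotype, with circles for replicate 1, squares for replicate 2 and a line for their mean. For Gfap the libraries without Cnp lie at 16.6% to 34.1% and those with Cnp at 8.72% to 15.5%.

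Gfap UMIs were concentrated in few astrocytes. The tenth of nuclei with most Gfap held 86.2% and 94.2% of its UMIs in WT, 73.7% and 49.8% in Cnp-/-, 72.9% and 69.2% in 5xFAD, and 60.3% and 74.0% in Cnp-/- 5xFAD. Both WT libraries were the most concentrated of the 8. They also had the smallest shares of astrocytes with a Gfap UMI before thinning (17.3% and 16.1%), and these measures are not independent. In nuclei thinned to 1000 UMIs, Vim, Stat3, Id3 and Aqp4 were each seen more often in nuclei with a Gfap UMI than in those without in 8 of 8 libraries, Osmr in 6, Serpina3n and S100b in 5, Slc1a2 in 2 and Lcn2 in 1. The same count over all genes was not made. Equal shares were counted as not higher, as for Serpina3n at 0% in both sets of the first WT and first Cnp-/- libraries. Lcn2 was at 0% in both sets of every library but the second Cnp-/- library. Slc1a2 was at 93.9% to 100% in either set, near its ceiling.

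Oligodendrocyte RNA moved with Gfap across the astrocyte profiles. The summed level of 5 oligodendrocyte markers, all with UMIs in every astrocyte profile, was 71.4 and 170 CPM in WT, 75.7 and 242 CPM in Cnp-/-, 62.0 and 57.4 CPM in 5xFAD, and 113 and 156 CPM in Cnp-/- 5xFAD, against 12563 to 15884 CPM in MOL. Of 11808 other genes, those with a pattern over the 8 libraries most like that of Gfap were Rnf41, Cp, Rida, Ppp1r1a and Mbp (Pearson's r of log2 CPM 0.944 to 0.932), and Mbp is itself an oligodendrocyte marker. Among members, r with Gfap was 0.91 for Vim and 0.91 for Serpina3n, 0.77 for Slc1a2, 0.75 for Id3, 0.66 for Aqp4, 0.63 for S100b, 0.48 for Osmr and 0.38 for Stat3. These points share library, depth and genotype.

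Leaving out 76 astrocytes with at least 5 UMIs of another class's markers (4734 kept) lowered the oligodendrocyte markers to 28.1 to 121 CPM. Gfap was then at 165 and 185 CPM in WT, 318 and 534 CPM in Cnp-/-, 214 and 247 CPM in 5xFAD, and 331 and 385 CPM in Cnp-/- 5xFAD. The 4 libraries without Cnp then lay above the 4 with it, as did 1.63% of the 11809 genes tested in all astrocytes, and the Gfap effect was 0.96 (SE 0.164). The earlier overlap was by the second WT library alone. There 11 nuclei with 4.90% of the astrocyte UMIs were left out, and Gfap fell from 329 to 185 CPM. The cutoff of 5 UMIs was not scaled to the depth of a nucleus. EdgeR's quasi-likelihood test still called 0 of 11512 genes, with 598 at an unadjusted p under 0.05. The 5xFAD effect on Gfap turned to 0.0595 (SE 0.162). The Cnp effect was 2.61 (SE 0.591) for Serpina3n and 1.78 (SE 0.255) for Osmr. The part of the remaining oligodendrocyte RNA in these values was not tested.

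**Figure D4:**
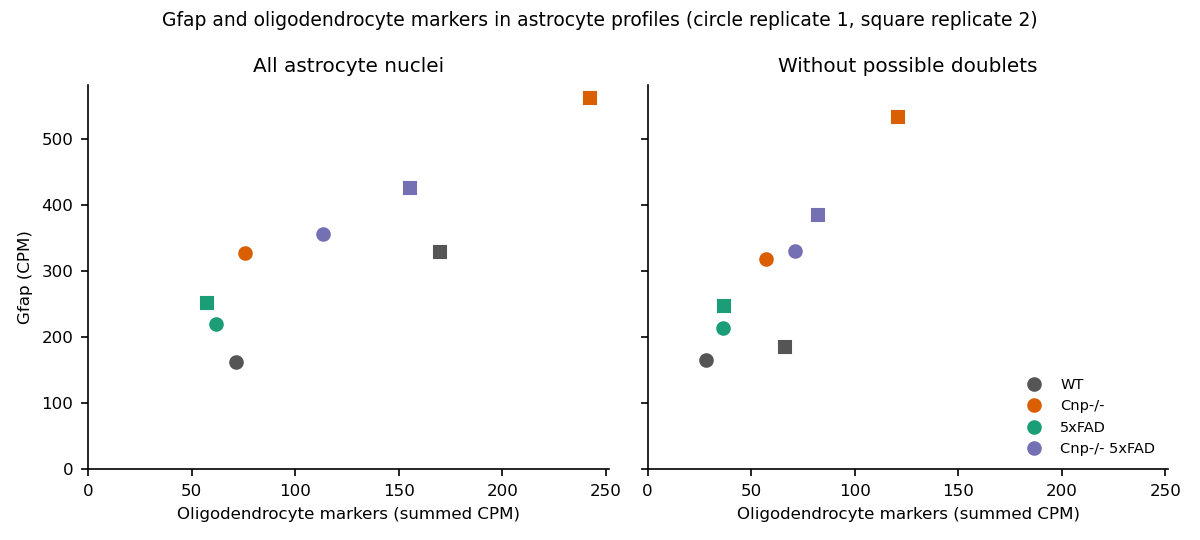
Gfap level in CPM (vertical axis) against the summed CPM of 5 oligodendrocyte markers (horizontal axis) in the astrocyte profile of each library, with all astrocyte nuclei on the left and without possible doublets on the right, circles for replicate 1 and squares for replicate 2, coloured by genotype. Removing possible doublets lowered the second WT library from 329 to 185 CPM of Gfap and from 170 to 66.3 CPM of the markers.

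Astrocytes made up 9.58% and 7.04% of nuclei in WT, 4.88% and 7.33% in Cnp-/-, 10.4% and 9.12% in 5xFAD, and 6.92% and 6.98% in Cnp-/- 5xFAD. The mean was 9.04% ± 1.43 (SD, n = 4) in libraries with Cnp and 6.53% ± 1.11 (SD, n = 4) in those without (two-sided exact permutation test, p = 0.0571, where 70 relabellings were possible), and the groups overlapped. With 5xFAD the mean was 8.36% ± 1.70 (SD, n = 4) against 7.21% ± 1.92 (SD, n = 4) without (two-sided exact permutation test, p = 0.486). The direction turned when the share was taken of nuclei that are not neurons, at 26.8% with and 31.7% without 5xFAD (two-sided exact permutation test, p = 0.371).

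The other reactive genes were read from lists of published astrocyte states and pathways. By edgeR's quasi-likelihood test no gene of any list passed the threshold in astrocytes. Without the filter on low counts, the members Gfap, Vim, Serpina3n, Osmr and Stat3 passed it for the Cnp effect, as did 1.57% of 22783 genes. DESeq2 called Serpina3n, Osmr and C4b for that effect. Each list is therefore given by its median Cnp effect on the log2 scale, against -0.01 over all genes. Its count above 0 stands against 47.9% of all genes. Of 13 pan-reactive genes 8 were tested, all 8 above 0 with a median of 0.98, and 4 of them are members. Of the A1-type and the A2-type genes, 3 of 12 and 3 of 13 were tested, all above 0, with medians of 0.97 and 0.65. Of 13 disease-associated astrocyte genes, 11 were above 0 with a median of 0.79, and of 4 tested intermediate filament and linker genes all were, with a median of 0.57. Members hold 4 places in the disease-associated list and 2 of the 4 filament genes. Stat3 is also in the A2-type list, and Osmr and Stat3 are in the gp130 list. Aqp4 and Slc1a2 are in the homeostatic list and Id3 is in the BMP-SMAD-Id list. All these lists therefore partly restate the members. The pan-reactive and disease-associated lists hold Serpina3n, and the gp130 list holds Bcl3 and Socs3. The filter kept these genes through libraries without Cnp alone, so the counts and medians of these lists are a description. List genes other than these, the members, C4b and Smad1 were not checked for this. Of the homeostatic genes 8 of 20 were above 0 with a median of -0.04, and of the BMP-SMAD-Id genes 11 of 15 with a median of 0.06. For 5xFAD the medians of these lists ran from -0.33 to 0.41.

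Of the gp130-JAK-STAT3 pathway, 15 of 20 genes were tested, and 9 were above 0, against 47.9% of all genes, with a median of 0.18. Values for the pathway's feedback inhibitor Socs3 and its target Bcl3, a partner of NF-kappaB, are given although neither passed the threshold, and both were chosen after their values were seen. In both classes Bcl3 passed the filter only through libraries without Cnp. Socs3 likewise reached the astrocyte cutoff of 6.24 CPM only there, at 5.49 to 10.3 CPM against 0 to 3.35 CPM with Cnp. The values of both genes are therefore a description. Socs3 held 0 and 0 UMIs in WT, 7 and 15 in Cnp-/-, 5 and 6 in 5xFAD, and 9 and 11 in Cnp-/- 5xFAD astrocytes. Bcl3 held 2 and 1 UMIs in WT, 9 and 17 in Cnp-/-, 7 and 3 in 5xFAD, and 27 and 9 in Cnp-/- 5xFAD, with a Cnp effect of 2.95 (SE 0.589, adjusted p = 0.727, edgeR's quasi-likelihood test). In MOL Bcl3 held 1 and 1 UMIs in WT, 20 and 10 in Cnp-/-, 5 and 3 in 5xFAD, and 20 and 13 in Cnp-/- 5xFAD, and its Cnp effect was 2.97 (SE 0.716, adjusted p = 0.128, edgeR's quasi-likelihood test).

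In MOL only S100b, Stat3 and Slc1a2 of the 10 members passed the filter, and 0 of the 3 were among the 67 of 8761 genes (0.765%) called for the Cnp effect by edgeR's quasi-likelihood test. With 1 library left out that count ran from 2 without the second 5xFAD library to 262 without the first Cnp-/- library. Stat3 in MOL was at 77.7 and 48.6 CPM in WT, 142 and 154 CPM in Cnp-/-, 110 and 102 CPM in 5xFAD, and 147 and 125 CPM in Cnp-/- 5xFAD. All 4 libraries without Cnp lay above all 4 with it, as did 3.96% of genes tested in MOL. The Cnp effect was 0.86 (SE 0.184, adjusted p = 0.0886, edgeR's quasi-likelihood test), it passed with DESeq2 (adjusted p = 0.00198), which called 5.9% of genes, and the difference from the Cnp effect in astrocytes was 0.38 (SE 0.189, adjusted p = 0.804, edgeR's quasi-likelihood test). Split by amyloid background, the Stat3 effect in MOL was 1.30 (SE 0.264) without 5xFAD and 0.43 (SE 0.256) with it, and the test of that difference gave -0.87 (SE 0.366, unadjusted p = 0.0460, adjusted p = 1.00, edgeR's quasi-likelihood test). No gene was called for the difference between MOL and astrocytes in either mutation by edgeR's quasi-likelihood test, where 829 (6.6%) for Cnp and 421 (3.35%) for 5xFAD of 12553 genes had an unadjusted p under 0.05, and DESeq2 called 59 (0.47%) and 0.

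S100b, which oligodendrocytes also express, was in MOL at 63.6 to 118 CPM with a Cnp effect of -0.21 (SE 0.203). Slc1a2 was higher in all 4 5xFAD libraries of MOL than in all others, as were 1.24% of genes, with a 5xFAD effect of 1.67 (SE 0.897, adjusted p = 1.00, edgeR's quasi-likelihood test). For 5xFAD in MOL edgeR called 0 of 8761 genes, with 326 (3.72%) at an unadjusted p under 0.05, and DESeq2 called 12 (0.137%). Slc1a2 passed the filter (9.38 CPM in at least 2 libraries) only through the 5xFAD libraries, of which 4 of 4 reached it against 1 of 4 without 5xFAD. It was at 12.4 to 22.4 CPM in these 4 libraries and at 0.609 to 10.98 CPM in the others. With 1 library left out its 5xFAD effect ran from 1.17 to 3.19. The 6 astrocyte markers summed in MOL to 426 and 335 CPM in 5xFAD, 234 and 239 CPM in Cnp-/- 5xFAD and 200.02 to 299 CPM in the libraries without 5xFAD, with Gja1 at 0 UMIs in 5 of 8 libraries. The part of astrocyte RNA in this value was not tested. Serpina3n, below the filter in MOL, held 2 and 1 UMIs in WT, 8 and 9 in Cnp-/-, 7 and 0 in 5xFAD, and 2 and 8 in Cnp-/- 5xFAD, which is 0% to 1.38% of MOL nuclei before thinning, against 0% to 0.288% of neurons.

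Of the listed genes, C4b, 1 of 7 disease-associated genes tested there, rose and Smad1, 1 of 7 BMP-SMAD-Id genes, fell in MOL without Cnp. C4b, a complement component of disease-associated glia, was at 15.5 and 16.9 CPM in WT, 290 and 300 CPM in Cnp-/-, 170 and 112 CPM in 5xFAD, and 305 and 297 CPM in Cnp-/- 5xFAD MOL, a Cnp effect of 2.70 (SE 0.180, adjusted p = 0.00291, edgeR's quasi-likelihood test). It was 4.26 between the libraries without 5xFAD and 1.15 between those with it, where the call was lost (adjusted p = 0.261, edgeR's quasi-likelihood test). In astrocytes it was at 69.5 and 61.1 CPM in WT, 180 and 255 CPM in Cnp-/-, 125 and 118 CPM in 5xFAD, and 211 and 150 CPM in Cnp-/- 5xFAD. All 4 astrocyte profiles without Cnp lay above all 4 with it, as did 1.58% of the 11809 genes tested there. The effect there was 1.15 (SE 0.156, adjusted p = 0.720, edgeR's quasi-likelihood test). Smad1, a mediator of BMP signals, was at 59.6 and 75.0 CPM in WT, 26.2 and 18.3 CPM in Cnp-/-, 86.0 and 68.3 CPM in 5xFAD, and 17.4 and 7.18 CPM in Cnp-/- 5xFAD MOL, where it fell by 2.03 (SE 0.330, adjusted p = 0.0447, edgeR's quasi-likelihood test). The Smad1 call was lost when any library but the first Cnp-/- library was left out. In astrocytes Smad1 stood between 67.7 and 78.9 CPM in every library.

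The members differed in how far they belong to astrocytes, which is given as a description since the classes were formed from the same counts. Levels here are means over 8 libraries with their SD, compared within a gene. Gfap was at 329 ± 126 CPM in astrocytes, 39.5 ± 26.1 CPM in NFOL, whose profiles hold astrocyte markers as given above, and 16.5 ± 10.2 CPM in endothelial cells, the last pair within their spread, and astrocytes held 75.5% of all its UMIs. Aqp4 at 336 ± 107 CPM and Slc1a2 at 7443 ± 882 CPM were likewise highest in astrocytes, ahead of NFOL at 56.9 ± 38.9 and 1383 ± 616 CPM. In neurons Slc1a2 was at 240 ± 23.5 CPM, and neurons, with 45141 nuclei and a median of 9105 UMIs each, held 54.6% of its UMIs against 41.7% in astrocytes. Serpina3n was at 13.4 ± 12.5 CPM in astrocytes and 4.05 ± 3.83 CPM in MOL, within their spread over genotypes.

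Other members were not highest in astrocytes. Osmr was at 181 ± 75.7 CPM in pericytes and 112 ± 19.6 CPM in endothelial cells, which lie within each other's spread, and at 31.1 ± 18.7 CPM in astrocytes. Vim was at 296 ± 64.7 CPM and Id3 at 521 ± 63.6 CPM in endothelial cells, against 64.3 ± 38.5 and 213 ± 65.9 CPM in astrocytes. Endothelial markers summed to 2.75 to 17.1 CPM in astrocyte profiles, and their part in these values was not tested. Stat3 was at 182 ± 17.5 CPM in microglia, 146 ± 36.6 CPM in astrocytes and 139 ± 20.0 CPM in endothelial cells, with OPC, MOL, NFOL and pericytes between 101 and 113 CPM and within their spread of one another, and neurons at 36.5 ± 4.75 CPM. In endothelial cells Stat3 was higher in all 4 libraries without Cnp than in the others, as were 1.75% of genes. S100b did not separate glia of the oligodendrocyte line from astrocytes, with 90.9 ± 20.5 CPM in MOL, 88.5 ± 34.1 in NFOL, 85.4 ± 29.0 in astrocytes and 78.3 ± 27.3 in OPC.

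**Figure D5:**
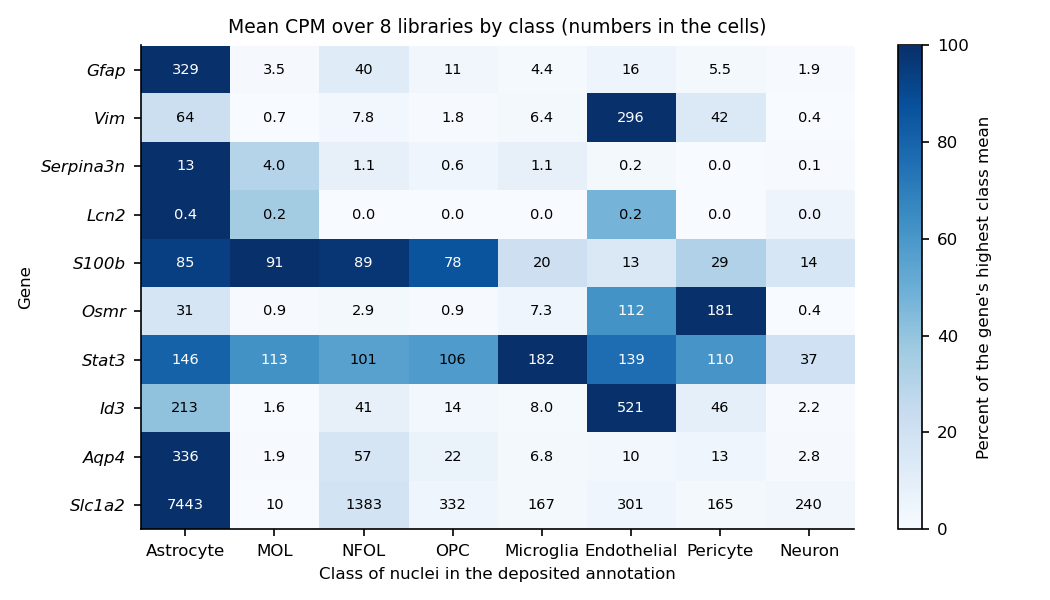
Mean CPM over 8 libraries (number in each cell) of the 10 genes (rows) in the 8 deposited classes (columns), coloured by the percent of that gene's highest class mean. Gfap, Serpina3n, Aqp4 and Slc1a2 peak in astrocytes, Vim and Id3 in endothelial cells, Osmr in pericytes and Stat3 in microglia, and Lcn2 is at or below 0.426 CPM in every class.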

How the data were processed

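UMI counts per gene and nucleus were deposited by the authors as raw counts without normalization, in 1 table with the library and cell class of each nucleus. The authors aligned reads with Cell Ranger 6.1.2 to mm10, removed ambient RNA with CellBender, filtered nuclei and clustered them with Seurat. How doublets were treated is not given in the sources used here. Totals of all 61949 nuclei matched the deposited totals, and the lowest was 501 UMIs. The separate microglia files were not used here.

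Counts were summed per library and class. Genes were filtered by filterByExpr, scaled by TMM and tested two-sided by edgeR 4.0.16's quasi-likelihood test with 1 mean per genotype and Benjamini-Hochberg adjustment over all genes tested (threshold 0.05, R 4.3.3). The Cnp and 5xFAD effects each compare 4 with 4 libraries. MOL and astrocyte effects were compared in 1 model with library as a block. DESeq2 1.42.0 was an alternative. The scripts were tested on simulated data with 200 changed genes and 1 spread for all genes. For the Cnp effect in astrocytes 31.8% of 2-fold and 93.5% of 4-fold changes were recovered. For the difference of that effect by amyloid background the shares were 0% and 17.8%, and for MOL minus astrocytes 0% and 9.80%. These shares hold for the simulated spread and need not hold for the real genes. For the real Cnp effect in astrocytes 0 of 11809 genes were called, and Cnp itself was not. A gene that was not called may therefore still differ. Log2 CPM for likeness used a prior count of 2. Astrocyte shares were tested by an exact permutation test.

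The members and lists were chosen with earlier results of these data known. Genes named beyond the members are those of the lists past the threshold, at most 4 per list and comparison, and the 5 genes most like Gfap in astrocytes, except Socs3 and Bcl3, which were chosen after their values were seen. The same was planned for Serpina3n in MOL, where it did not pass the filter. Intervals and limits from counts cover counting error only. Promoter sequences are from RefSeq, GRCm38.p6, and positions from GENCODE M21. A promoter was found for 9 of 10 members.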

Additional observations from a re-analysis of the deposited data

Results flagged for a closer look

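Stat3 in endothelial cells, a class outside the comparisons above, was higher in all 4 libraries without Cnp than in all 4 with it, which is why it is listed here. Its level was 136 and 124 CPM in WT, 142 and 147 CPM in Cnp-/-, 127 and 113 CPM in 5xFAD, and 180 and 142 CPM in Cnp-/- 5xFAD. The log2 ratio of the group means was 0.285. Of 11754 genes that passed the filter in endothelial cells, 1.75% separated in the same direction, and the difference was not tested.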

How the results depend on the processing

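The counts of called genes depended on the tool and the filter. For astrocytes, 0 calls became 358, 352 and 389 without the filter and 7, 2 and 9 with DESeq2 for the Cnp effect, the 5xFAD effect and their interaction. For the Cnp effect in MOL, 67 became 544 without the filter, 517 with DESeq2, 103 in nuclei with at least 1000 UMIs, 4 in libraries without and 2 in libraries with 5xFAD, and 2 to 262 with 1 library left out: 29 and 12 without WT replicate 1 or 2, 262 and 20 without Cnp-/- replicate 1 or 2, 3 and 2 without 5xFAD replicate 1 or 2, and 29 and 7 without Cnp-/- 5xFAD replicate 1 or 2. For the 5xFAD effect in MOL, 0 became 37 without the filter, 12 with DESeq2 and 1, C4b, in libraries with Cnp. For MOL minus astrocytes, the Cnp effect gave 1 call with DESeq2 size factors, 286 without the filter, 59 with DESeq2 and 31 without the library block, and the 5xFAD effect 91 without the filter. The cause was not tested.

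The replicate number as a block lowered the Cnp calls in MOL from 67 to 23 and left the astrocyte counts at 0. Deviations of same-numbered libraries correlated at -0.04 to 0.105 in astrocytes and -0.09 to 0.16 in MOL, not above 0.1 in every pair, so the numbers were not taken as a pairing. These correlations are over all genes tested. In astrocytes replicate 2 was the higher of each pair for Gfap, Vim, Serpina3n, S100b, Id3 and Aqp4. The share of all genes with that pattern was not counted, and the member effects given in Results are from fits without the block.

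Among members, without the filter Gfap, Vim, Serpina3n, Osmr and Stat3 passed the threshold for the Cnp effect in astrocytes. In that setting 1.57% of 22783 genes passed (0.268% higher and 1.30% lower). With 1 library left out the effect was 0.57 to 1.09 for Gfap, 0.71 to 1.58 for Vim, 2.52 to 3.98 for Serpina3n, 1.504 to 2.21 for Osmr 0.40 to 0.61 for Stat3 and 0.086 to 0.61 for Id3. The 5xFAD effect ran from 0.33 to 1.04 for Osmr in astrocytes and from 1.17 (without Cnp-/- replicate 1) to 3.19 (without Cnp-/- replicate 2) for Slc1a2 in MOL, and the Osmr interaction from -1.48 (without WT replicate 2) to -2.90 (without WT replicate 1). The Cnp effects of S100b (-0.21 to 0.42) and Aqp4 (-0.21 to 0.47) changed sign, as did S100b between libraries without 5xFAD (-0.17, and 0.15 in MOL), S100b in MOL with 1 library left out (-0.37 to 0.0083), and the 5xFAD effect on Gfap (-0.36 to 0.17, and 0.0595 without possible doublets), and in Cnp-/- libraries on Serpina3n (-0.12) and Osmr (-0.41). Stat3 in MOL passed without the filter, with DESeq2 and in nuclei with at least 1000 UMIs (adjusted p = 0.0465, range 0.00198 to 0.872 over all alternatives). C4b in MOL kept its call except between the 5xFAD libraries (1.15), and Smad1 lost it when any of 7 libraries was left out (-1.79 to -2.41).

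The difference in astrocyte share without Cnp was -1.96 to -3.17 percentage points with 1 library left out (exact permutation tests, p = 0.0286 without WT replicate 2 and 0.0571 to 0.0857 otherwise). Its p was 0.143 as a share of nuclei that are not neurons, 0.114 in nuclei with at least 1000 UMIs and 0.111 with relabelling within replicate numbers (exact permutation tests). With 5xFAD the share turned from 1.15 to -4.88 percentage points when taken of nuclei that are not neurons, and it was 0.369 to 1.94 with 1 library left out. Depth limits Serpina3n and Lcn2 most, at 1 to 51 and 0 to 4 UMIs in an astrocyte profile.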
